A study of Mus musculus with 6 samples.

Results

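The 43 genes described here encode proteins that copy DNA or drive cell division, and they were listed by name for that role, with no measured value in the rule. They comprise 22 genes used in S phase and 21 genes used in G2 and mitosis (G2/M), out of 53801 mouse gene rows in the deposited expression tables. The study asked how gene expression differs in β cells that lack SND1, a transcriptional coregulator with nuclease-like and Tudor domains, and it also followed the expansion of the cells.

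All cells were MIN6, a mouse insulinoma line that secretes insulin and divides continuously in culture. Each clone carried Cas9 and a lentiviral guide RNA, survived puromycin, and was expanded from cells seeded at single-cell density. The 3 control clones received a guide to intron 2 of *Snd1*, and the 3 *Snd1* KO clones received guide RNA to exon 2. The paper lists 2 guides to exon 2 and shows knockout clones from each, so the *Snd1* KO group mixes guides. One RNA library was sequenced per clone, so a group is 3 clones, and the spread within a group holds differences between clones as well as technical error. Clones are called Control 1 to 3 and *Snd1* KO 1 to 3 by the numbers in their labels.

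Before S phase, the origin recognition complex, CDC6 and CDT1 load the MCM2 to MCM7 helicase onto DNA, and CDC45 and the GINS proteins then turn it into an active motor ahead of the polymerases. Later, CDK1 with cyclins A and B starts mitosis, kinesins and aurora kinases shape the spindle, and CDC20 with the anaphase-promoting complex ends it by marking cyclin B and securin for destruction. Most of these genes are transcribed in a narrow window of the cycle, so in a mixed culture their mRNA reports both how many cells are in that window and how much RNA each of those cells holds.

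Values are TPM, a length-scaled measure of transcript abundance in which the abundances of each library are scaled to sum to 1000000. Reads on genes, recovered from the TPM, ran from 25803669 to 32991284 per clone. The targeted gene was measured at 113, 119 and 112 TPM in the controls and at 14.7, 57.1 and 19.9 TPM in *Snd1* KO 1 to 3, so the groups were apart and *Snd1* KO 2 kept the most transcript. All 12 β cell markers examined were expressed, with a summed level of 4.87e+04 to 8.21e+04 TPM in the controls and 5.32e+04 to 8.99e+04 TPM in the *Snd1* KO clones. The α cell hormone gene *Gcg* was measured at 174 to 314 TPM in the controls and 55.2 to 1.1e+03 TPM in the *Snd1* KO clones. Summed δ cell, PP cell, acinar, fibroblast, macrophage and endothelial markers did not exceed 5.31 TPM in any clone.

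Replication and mitosis genes were expressed in every clone and differed little between the groups. Of 17823 genes averaging 0.5 TPM or more, limma called 1 (0.00561%) at an adjusted p under 0.05 with a difference of 2-fold or more, and that gene, the small nucleolar RNA gene *Gm24966*, was not among the 43. All 43 passed the expression filter, none was called, and the lowest adjusted p was 0.621 for *Cenpf* in G2/M and 0.639 for *Prim1* in S phase. None reached an unadjusted p under 0.05 either, where 5.63% of all genes tested did so with a higher level and 2.33% with a lower level in the *Snd1* KO clones. The mean of the *Snd1* KO clones stood between 87.7% and 125% of the control mean, and 28 of the 43 genes were within 10% of it. From bulk RNA, a change in the number of cells in a phase and a change in RNA per cell cannot be told apart.

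The precision was enough to bound these differences. Every one of the 43 unadjusted 95% intervals for the log2 fold change, taken on log2(TPM + 1), lay inside a 2-fold change in either direction, compared with 66.6% of all genes tested and 88.3% of the 6797 genes expressed at least as highly as the lowest of the 43, at a mean of 18.3 TPM. The widest ends were -0.65 for *Ccne2* and 0.88 for *Ccnb2*. When Control 3, *Snd1* KO 1 or *Snd1* KO 3 was left out, or Control 3 and *Snd1* KO 1 together, the interval of *Ccnb2* reached 2-fold and 20 of the 21 G2/M genes remained inside the bound. Smaller differences are not excluded by intervals of this width. The 43 genes had between 292 and 38736 reads in a clone. With each read taken as an independent count, the coefficient of variation from counting alone was at most 5.85%. It would be larger if the mates of a pair were counted as separate reads, which is not known.

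**Figure D1:**
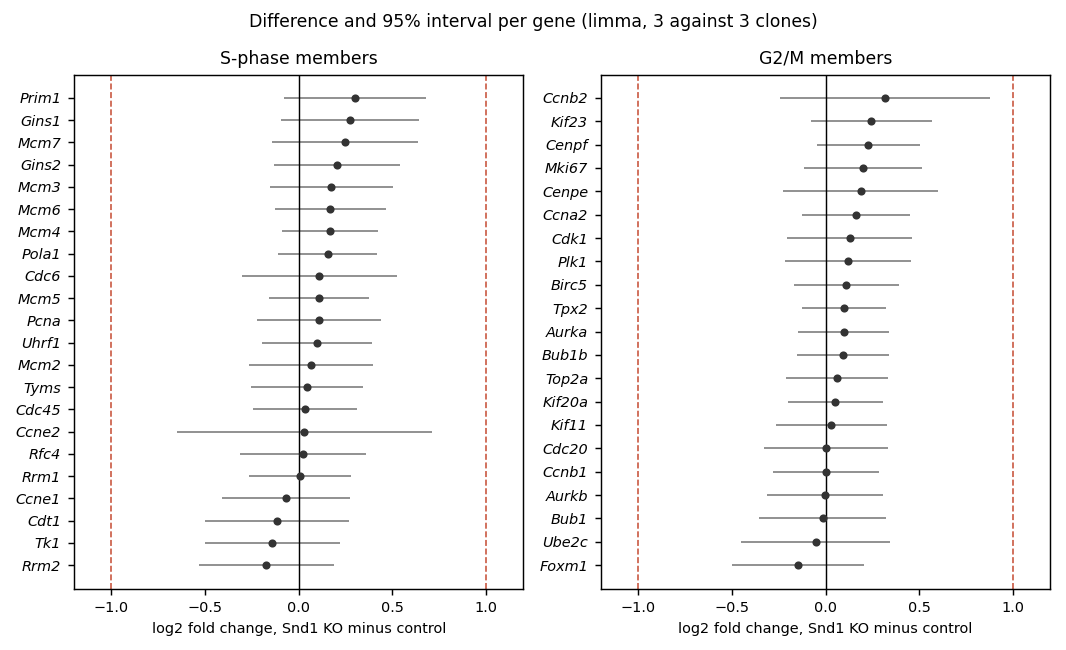
Difference in expression of each S-phase gene (left) and G2/M gene (right), as the log2 fold change of 3 *Snd1* KO clones minus 3 control clones on log2(TPM + 1), with points for the estimate and bars for the unadjusted 95% interval from limma. Dashed lines mark a 2-fold change, and all 43 bars lie between them and cross 0.

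In S phase the median log2 fold change was 0.10, with a range of -0.17 to 0.30, and 18 of 22 genes were higher in mean in the *Snd1* KO clones, or 14 of 22 under median ratio scaling. The median was 0.045 without *Snd1* KO 2, 0.067 without Control 2 and 0.18 without Control 1. In G2/M it was 0.096, with a range of -0.15 to 0.32, and 17 of 21 genes were higher in mean, or 14 of 21 under median ratio scaling. Without Control 2 the median was 0.047. Over all genes tested the median was 0.044, and over the 6797 genes at comparable levels it was 0.0088. Higher in mean were 10208 of the 17823 genes tested and 3540 of the 6797, or 9131 and 2934 under median ratio scaling. For *Pola1* in S phase the lowest *Snd1* KO clone was above the highest control clone, which held for 9.69% of all genes tested. For none of the 43 were all *Snd1* KO clones below all controls, which held for 4.03% of all genes tested. No G2/M gene had groups that were apart in either direction.

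Giving each clone a weight for its quality raised the calls over the whole table to 895 of 17823 genes (5.02%), and leaving out Control 3 and *Snd1* KO 1 together raised them to 133. None of the 43 was called at 2-fold in either. With the weights *Ccnb2* alone of the 43 had an adjusted p under 0.05, at 0.0418, with a log2 fold change of 0.54, where 12.1% of all genes tested passed that threshold at any size.

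Promoter sequences are shown because cell cycle genes are known for a small set of shared elements that differ between the phases. E2F sites bind the E2F factors that act at the start of S phase, the cell cycle genes homology region (CHR) binds the MuvB complexes that act in G2/M, and the CCAAT box binds NF-Y. RefSeq promoters of build GRCm38.p6, from 250 bases before to 50 bases after each annotated start, were found for 34 of the 43 genes. *Mcm4*, *Gins1*, *Gins2*, *Ccne2*, *Ccna2*, *Aurkb*, *Kif20a*, *Tpx2* and *Foxm1* were not matched. The letters searched on both strands were TTTGAA for the CHR, CCAAT for the CCAAT box, and TTTCCCGC, TTTCGCGC, TTTGCCGC or TTTGGCGC for E2F, and words of one motif may overlap.

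At least 1 E2F word was present in 8 of the 18 S-phase promoters (44.4%), those of *Mcm3*, *Mcm5*, *Mcm6*, *Mcm7*, *Cdc6*, *Cdt1*, *Uhrf1* and *Pola1*, against 2.6% of the 27025 genes in the table. The CHR letters were present in 2 of these 18 (11.1%), *Mcm2* and *Cdc45*, against 20.2% of all genes, and CCAAT in 12 of 18 (66.7%), against 41.1%. Only 16 of the 21 G2/M genes (76.2%) had a promoter, which is under the 80% needed for a share, so their matches are given by name. The CHR letters were found at *Mki67*, *Top2a*, *Cdk1*, *Ccnb2*, *Plk1*, *Aurka*, *Bub1b*, *Cdc20*, *Cenpf*, *Kif11*, *Kif23* and *Ube2c*, and an E2F word at *Cdk1*. CCAAT was found at all of these genes and at *Ccnb1*, *Bub1* and *Cenpe*. A match of letters is a description of the window and does not show that a factor binds there.

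The S-phase stretches below carry E2F words in capitals and end at the base before the annotated start. They come from *Mcm5* (chr8:75109349-75109508, plus strand), *Mcm6* (chr1:128359706-128359825, minus strand) and *Pola1* (chrX:93632156-93632305, minus strand), each read 5′ to 3′ along its gene. In *Mcm5* and in the first site of *Mcm6*, words on opposite strands overlap to form a longer run, and in *Pola1* the word lies on the opposite strand.
Mcm5: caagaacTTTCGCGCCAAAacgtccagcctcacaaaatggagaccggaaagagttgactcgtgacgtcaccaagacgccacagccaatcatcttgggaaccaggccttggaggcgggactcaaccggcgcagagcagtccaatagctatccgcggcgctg
Mcm6: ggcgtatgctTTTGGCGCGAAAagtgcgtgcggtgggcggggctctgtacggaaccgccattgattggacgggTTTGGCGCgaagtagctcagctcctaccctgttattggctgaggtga
Pola1: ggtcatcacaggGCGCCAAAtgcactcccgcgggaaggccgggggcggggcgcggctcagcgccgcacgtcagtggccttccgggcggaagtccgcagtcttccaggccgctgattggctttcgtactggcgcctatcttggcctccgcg

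The G2/M stretches carry the CHR in capitals, as TTTGAA or, where it lies on the opposite strand, TTCAAA. They come from *Mki67* (chr7:135716380-135716499, minus strand), *Top2a* (chr11:99024190-99024269, minus strand), *Kif11* (chr19:37376302-37376381, plus strand), *Cdk1* (chr10:69352943-69353022, minus strand) and *Cdc20* (chr4:118437354-118437433, minus strand). The last base is directly before the annotated start for the first 3, and 31 and 11 bases before it for *Cdk1* and *Cdc20*. Further CHR matches before the start, with first bases at -15 for *Cdk1* and -179 for *Top2a*, lie outside these stretches.
Mki67: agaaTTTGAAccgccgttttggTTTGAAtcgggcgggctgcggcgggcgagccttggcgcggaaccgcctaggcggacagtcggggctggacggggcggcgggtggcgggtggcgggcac
Top2a: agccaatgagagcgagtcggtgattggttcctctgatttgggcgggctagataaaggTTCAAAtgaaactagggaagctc
Kif11: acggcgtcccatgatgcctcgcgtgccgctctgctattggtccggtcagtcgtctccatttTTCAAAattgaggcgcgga
Cdk1: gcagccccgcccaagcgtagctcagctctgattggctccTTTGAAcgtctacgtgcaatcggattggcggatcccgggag
Cdc20: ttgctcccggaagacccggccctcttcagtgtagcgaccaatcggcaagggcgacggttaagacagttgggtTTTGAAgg

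**Figure D2:**
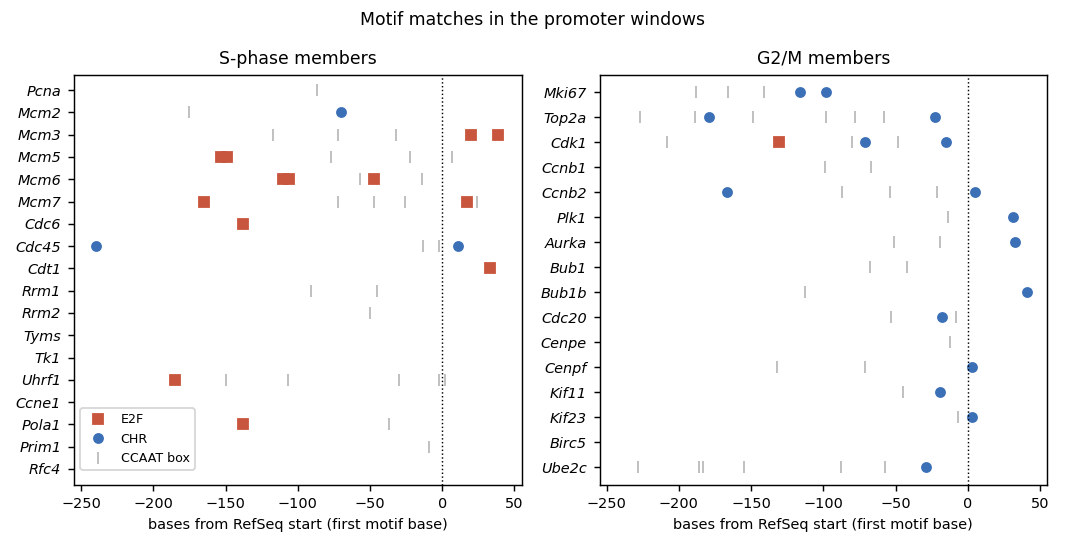
Positions of E2F words (squares), the CHR (circles) and the CCAAT box (ticks) in the promoter windows of 18 S-phase and 16 G2/M genes, with the horizontal axis in bases from the RefSeq start to the first base of the match. E2F words are present in 8 S-phase promoters and 1 G2/M promoter, and CHR letters in 2 S-phase and 12 G2/M promoters.

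To compare genes with each other, levels were set per length, as recovered reads per base of merged exons, scaled to sum to 1000000 in each clone. On this scale the highest S-phase gene was *Pcna*, the sliding clamp of the replicative polymerases, at a mean of 434 over the 6 clones. The other leading S-phase genes were *Mcm6* at 181, *Mcm4* at 180, *Mcm5* at 160, *Mcm3* at 154 and *Ccne2* at 143, and the lowest was *Gins2* at 24. *Mki67*, which coats mitotic chromosomes and is widely used as a proliferation marker, led the G2/M genes at 396. It was followed by *Top2a* at 337, *Kif11* at 248, *Ccna2* at 223, *Cdc20* at 221 and *Kif20a* at 216, and *Kif23* was lowest at 39. Neighbours in this order such as *Mcm6* and *Mcm4*, or *Ccna2* and *Cdc20*, had overlapping values over the clones.

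**Figure D3:**
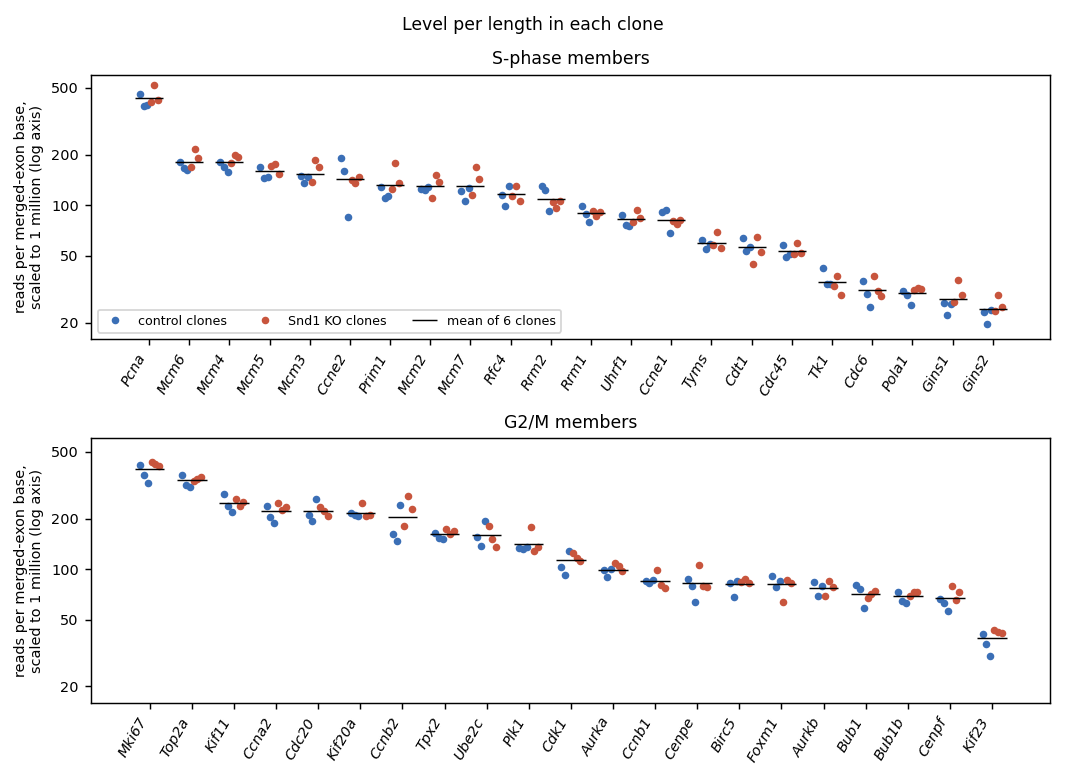
Level per length of each gene in each clone, in recovered reads per merged-exon base scaled to 1000000 per clone, on a log axis. Points are control clones (blue) and *Snd1* KO clones (red), bars are the mean of 6 clones, and genes are ordered by that mean, from *Pcna* at 434 to *Gins2* at 24 in S phase and from *Mki67* at 396 to *Kif23* at 39 in G2/M.

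The 6 subunits of the MCM helicase, which form a ring with 1 copy of each, had mRNA levels per length from 130 to 181, a 1.4-fold range on the merged-exon scale. In deposited TPM the same 6 genes averaged 86.1 to 220 over the clones, a 2.56-fold range. Their log2 fold changes ran from 0.066 to 0.25, with a median of 0.17, and all 6 were higher in mean in the *Snd1* KO clones under each scaling tried. Without *Snd1* KO 2 the sign of *Mcm2* turned, to -0.038. *Mcm3* (ENSMUSG00000041859) was measured at 103, 93.7 and 101 TPM in Control 1 to 3 and at 94.4, 129 and 115 TPM in *Snd1* KO 1 to 3. *Snd1* KO 1 lay among the controls and the other two *Snd1* KO clones above them, for a log2 fold change of 0.17 (SE 0.14, limma adjusted p = 0.757). Omitting *Snd1* KO 2 lowered it to 0.072, and omitting *Snd1* KO 1 raised it to 0.30. In *Mcm7* the values were 81.3, 70.2 and 83.0 TPM in the controls and 75.5, 112 and 94.4 TPM in the *Snd1* KO clones. Again *Snd1* KO 1 was within the control range, and the log2 fold change was 0.25 (SE 0.16, limma adjusted p = 0.705). The same omissions gave 0.11 and 0.39.

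*Mcm4* had 222, 209 and 192 TPM in the controls and 217, 245 and 237 TPM in the *Snd1* KO clones, with only Control 1 and *Snd1* KO 1 out of order between the groups. *Mcm6* had 163, 148 and 145 TPM against 151, 194 and 170 TPM, and *Snd1* KO 1 was again the clone inside the control range. *Mcm5* had 108, 92.7 and 94.1 TPM against 109, 112 and 96.9 TPM, so that *Snd1* KO 3 fell below Control 1. *Mcm2*, at 150 ± 3.22 TPM in the controls and 158 ± 25.9 TPM in the *Snd1* KO clones (SD, n = 3 each), had the smallest difference of the 6. *Snd1* KO 2 was the highest clone for every MCM gene, with a mean deviation of 0.25 log2 units from the 6-clone mean.

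CDC45 and GINS join the helicase when origins fire. *Gins1* was measured at 23.9, 20.1 and 23.4 TPM in the controls and 23.7, 32.8 and 26.2 TPM in the *Snd1* KO clones. The 2 groups overlapped through *Snd1* KO 1, and the log2 fold change of 0.28 (SE 0.15) had a limma adjusted p of 0.659. It fell to 0.15 when *Snd1* KO 2 was omitted. *Gins2* had 17.8, 15.1 and 18.1 TPM against 17.8, 22.4 and 19.0 TPM, again with *Snd1* KO 2 highest and Control 2 lowest. *Cdc45* differed least, at 62.8 ± 5.42 against 64.3 ± 5.83 TPM (SD, n = 3 each), and its small difference changed sign under median ratio scaling.

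The loading factors *Cdc6* and *Cdt1* did not share a pattern over the clones. *Cdc6* was highest in *Snd1* KO 1, at 24.9 TPM, and lowest in Control 3, at 16.4 TPM, whereas *Cdt1* was lowest in *Snd1* KO 1, at 32.7 TPM, and highest in *Snd1* KO 2, at 47.7 TPM. Their log2 fold changes were 0.11 (SE 0.17) and -0.12 (SE 0.16).

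Among the polymerase genes, *Prim1*, the catalytic subunit of primase (ENSMUSG00000025395, GRCm38 chr10:128015168-128030037), had the largest S-phase difference. It was measured at 101, 87.5 and 89.4 TPM in the controls and 97.6, 142 and 107 TPM in the *Snd1* KO clones. *Snd1* KO 2 stood far above the other clones, *Snd1* KO 1 lay below Control 1, and the log2 fold change was 0.30 (95% interval -0.08 to 0.68). Leaving out 1 clone at a time moved it between 0.14 and 0.41, with the lowest value without *Snd1* KO 2.

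*Pola1*, the catalytic subunit of DNA polymerase α (ENSMUSG00000006678, GRCm38 chrX:93304767-93632155), was the gene with groups apart. It had 42.6, 40.1 and 34.9 TPM in the controls and 42.8, 44.5 and 43.4 TPM in the *Snd1* KO clones. Control 1 and *Snd1* KO 1 differed by less than the counting error. With reads taken as independent counts, this error was 2.38% in the clone with the fewest reads of this gene, at 1771. The log2 fold change was 0.15 (SE 0.11), the limma adjusted p was 0.734, and the two-sided exact permutation p was 0.1, the smallest that 3 against 3 clones can give. The difference was 0.075 without Control 3 and 0.22 without Control 1.

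*Pcna* had 395, 331 and 337 TPM in the controls and 348, 442 and 361 TPM in the *Snd1* KO clones, with Control 1 above both *Snd1* KO 1 and *Snd1* KO 3. Its log2 fold change was 0.11 (SE 0.14). *Rfc4*, a subunit of the loader that places the clamp, had overlapping groups and a log2 fold change of 0.02 (SE 0.14), which changed sign under median ratio scaling.

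The 4 genes that supply deoxynucleotides had a median log2 fold change of -0.067, and 2 of the 4 were lower in mean in the *Snd1* KO clones, or 3 with median ratio scaling, where only *Tyms* was higher. *Rrm2*, the ribonucleotide reductase subunit that limits the enzyme in S phase, had the lowest value of all 43 genes at -0.17 (SE 0.15), which was -0.32 without Control 3 and -0.068 without Control 1. Its levels were 129, 119 and 90 TPM in the controls and 100, 94.0 and 103 TPM in the *Snd1* KO clones. Control 3 was below all 3 *Snd1* KO clones while Control 1 and Control 2 were above them. *Rrm1*, the other subunit, differed by 0.01 (SE 0.11), *Tyms*, thymidylate synthase, by 0.04 (SE 0.12), and *Tk1*, thymidine kinase, by -0.14 (SE 0.15).

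Cyclin E drives entry into S phase, and both of its genes were lowest in Control 3. *Ccne2* was measured at 99.4, 82.7 and 44.1 TPM in Control 1 to 3 and at 72.6, 70.2 and 75.6 TPM in the *Snd1* KO clones. The highest clone exceeded the lowest by 2.26-fold, the widest ratio of the 43 genes, and both extremes were controls. The *Snd1* KO clones lay between them with an SD of 2.71 TPM, against 28.4 TPM in the controls (n = 3 each). *Ccne1* had 89.0, 92.0 and 66.6 TPM in the controls and 78.5, 75.5 and 79.6 TPM in the *Snd1* KO clones, and the *Snd1* KO clones again lay inside the control range. *Uhrf1*, which carries DNA methylation over to the new strand, had a log2 fold change of 0.10 (SE 0.12) with overlapping groups.

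CDK1 and its cyclins start mitosis. *Ccnb2* (ENSMUSG00000032218, GRCm38 chr9:70407692-70421547), a B-type cyclin, had the largest difference of the 43 genes. It was measured at 259, 233 and 385 TPM in the controls and at 286, 434 and 361 TPM in the *Snd1* KO clones. Control 3 was above *Snd1* KO 1 and *Snd1* KO 3, so the groups overlapped, and the log2 fold change of 0.32 (95% interval -0.24 to 0.88) had a limma adjusted p of 0.743. Leaving out 1 clone at a time moved it between 0.17 and 0.53.

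*Cdk1* itself had 95.3, 85.0 and 118 TPM in the controls and 113, 108 and 102 TPM in the *Snd1* KO clones. As with *Ccnb2*, Control 3 departed upward from the other two controls. *Ccna2* had its lowest value in Control 3, with 184, 156 and 144 TPM in the controls and 188, 174 and 178 TPM in the *Snd1* KO clones. *Ccnb1*, the main B-type cyclin, stood at 53.9 ± 1.14 TPM in the controls and 54.2 ± 6.91 TPM in the *Snd1* KO clones (SD, n = 3 each).

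The 3 mitotic kinase genes had overlapping groups. *Plk1* had a log2 fold change of 0.12 (SE 0.14), with *Snd1* KO 1 at 178 TPM and the other 5 clones between 128 and 136 TPM. *Aurka*, which acts at the spindle poles, differed by 0.10 (SE 0.10). *Aurkb*, the kinase of the chromosomal passenger complex, was at 47.9 ± 4.87 TPM in the controls and 47.8 ± 5.24 TPM in the *Snd1* KO clones (SD, n = 3 each).

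Spindle checkpoint and anaphase genes had a median log2 fold change of -0.0065. *Cdc20*, the activator of the anaphase-promoting complex, was measured at 204, 185 and 253 TPM in the controls and 223, 215 and 200 TPM in the *Snd1* KO clones. *Ube2c*, the ubiquitin-conjugating enzyme that works with that complex, was likewise highest in Control 3, at 252 TPM, and ranged from 179 to 235 TPM in the *Snd1* KO clones. The checkpoint kinase gene *Bub1* was instead lowest in Control 3, at 66.0 TPM, and ranged from 75.1 to 82.9 TPM in the *Snd1* KO clones. *Bub1b* differed by 0.09 (SE 0.10).

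Among the motors, *Kif23*, a kinesin of the central spindle needed for cytokinesis, had 31.8, 27.4 and 23.3 TPM in the controls and 33.2, 32.6 and 31.8 TPM in the *Snd1* KO clones. The groups met at 31.8 TPM, and the log2 fold change was 0.24 (SE 0.14, limma adjusted p = 0.654). The value was 0.13 without Control 3 and 0.35 without Control 1. *Cenpe*, the kinesin that links kinetochores to microtubules, had 118, 107 and 85.4 TPM in the controls and 142, 107 and 105 TPM in the *Snd1* KO clones. Its log2 fold change of 0.19 (SE 0.17) rested on the lowest and highest clones, Control 3 and *Snd1* KO 1, and was -0.082 without them.

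*Kif11*, the motor that pushes spindle poles apart, had 346, 295 and 271 TPM in the controls and 321, 296 and 310 TPM in the *Snd1* KO clones, with all *Snd1* KO values inside the control range. *Kif20a*, needed for cytokinesis, had 106, 103 and 99.8 TPM against 119, 100 and 102 TPM, and only *Snd1* KO 1 lay outside the control range. *Tpx2*, which activates aurora A on the spindle, had the narrowest range of the 43 genes, with a highest-to-lowest ratio of 1.15 over the 6 clones.

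The 4 chromosome-associated genes had log2 fold changes between 0.061 and 0.23. *Cenpf*, a kinetochore protein, had the lowest adjusted p of the 43 genes, with 83.9, 79.2 and 71.3 TPM in the controls and 99.4, 83.3 and 92.4 TPM in the *Snd1* KO clones. *Snd1* KO 2 lay just below Control 1, and the log2 fold change was 0.23 (95% interval -0.05 to 0.50). *Mki67* (ENSMUSG00000031004, GRCm38 chr7:135689784-135716361) had 636, 545 and 491 TPM in the controls and 653, 644 and 616 TPM in the *Snd1* KO clones. The *Snd1* KO clones were close together, at 637 ± 19.2 TPM, while the controls were spread, at 557 ± 73.0 TPM (SD, n = 3 each), and Control 1 overlapped them. The log2 fold change was 0.20 (SE 0.13, limma adjusted p = 0.704), and it was 0.11 without Control 3 and 0.30 without Control 1.

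*Top2a*, the topoisomerase that untangles chromosomes before anaphase, had 444, 386 and 372 TPM in the controls and 404, 420 and 426 TPM in the *Snd1* KO clones, inside the control range. *Birc5*, which encodes survivin, differed by 0.11 (SE 0.12). *Foxm1*, a transcription factor that activates many G2/M genes, had a log2 fold change of -0.15 (SE 0.15). It was lowest in *Snd1* KO 1, at 48.4 TPM, and ranged from 60.1 to 70.5 TPM in the other 5 clones.

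Some pairs of clones within a group were ordered alike by most of the 43 genes and others were not. Control 1 was above Control 2 in 42 of the 43 genes (97.7%), with *Ccne1* as the exception, where 59.3% of the 6797 genes at comparable levels had that order. This pair was singled out after all 15 pairs of clones had been seen, and each clone is 1 library. Control 2 was above Control 3 in 48.8% of the 43 genes, against 64.7% of the genes at comparable levels. *Snd1* KO 1 was above *Snd1* KO 2 in 44.2%, against 49.9%. The 44.2% was made up of 22.7% of the S-phase genes and 66.7% of the G2/M genes. *Snd1* KO 1 was above *Snd1* KO 3 in 27.3% and 71.4% of the 2 phases, against 48.7% of the genes at comparable levels. The lowest clone was Control 3 for 20 genes (46.5%) and Control 2 for 15 genes (34.9%), against 32.9% and 11.8% of the genes at comparable levels. The highest was *Snd1* KO 2 for 20 genes (46.5%), against 21.6%. The median SD within a group was 0.155 log2 units for the 43 genes and 0.195 for the genes at comparable levels.

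**Figure D4:**
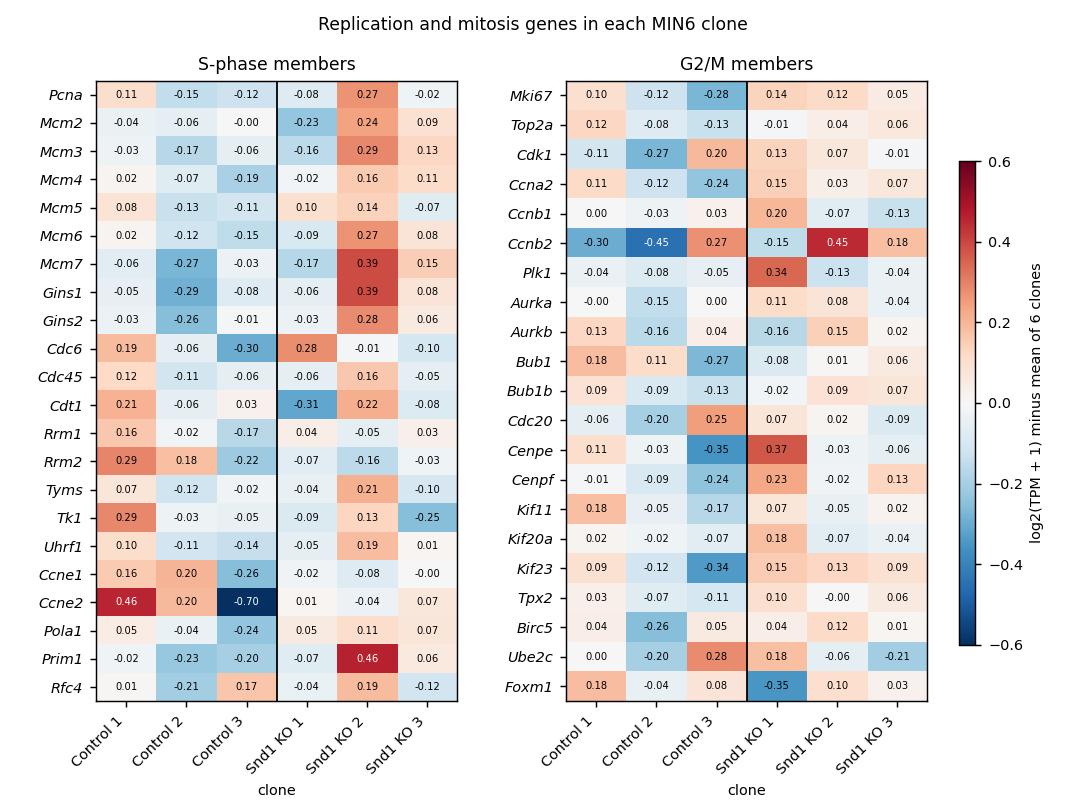
Deviation of each gene in each clone from its mean over 6 clones, in log2(TPM + 1), for S-phase genes (left) and G2/M genes (right). Red is above and blue below the mean, a vertical line separates controls from *Snd1* KO clones, and the strongest single value is *Ccne2* in Control 3.

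S-phase and G2/M genes were highest in different clones. *Snd1* KO 2 was the highest clone for 16 of 22 S-phase genes and for 4 of 21 G2/M genes, against 21.6% of the genes at comparable levels, and its mean deviation was 0.171 log2 units in S phase and 0.046 in G2/M. *Snd1* KO 1 was above the 6-clone mean in 5 of 22 S-phase genes and in 15 of 21 G2/M genes, with mean deviations of -0.051 and 0.080. Taken as G2/M minus S phase, *Snd1* KO 1 and *Snd1* KO 2 were the extremes of the 6 clones, at 0.131 and -0.125, and both belong to the same genotype. *Snd1* KO 3 stayed near the mean in both phases, at 0.004 and 0.011.

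In share of the library, S-phase genes took 0.188% to 0.220% of all TPM in the controls and 0.198% to 0.236% in the *Snd1* KO clones. G2/M genes took 0.304% to 0.345% and 0.341% to 0.356%. In both phases the ranges of the groups overlapped.

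Some clones that stood out in these patterns also stood out in other properties. *Snd1* KO 2, which had the highest S-phase level, also kept the most *Snd1* transcript of the KO clones, at 57.1 TPM. *Snd1* KO 1, which was high in G2/M genes, had the highest *Gcg* level. In Control 3, genes with the longest merged exons, of at least 5371 bases, had a median deviation of -0.178 log2 units and those with the shortest, of at most 2976 bases, of 0.018. The 11 members in each of these length classes had medians of -0.174 and 0.005. The part of these properties in the results was not tested.

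Other genes of the same pathways were taken from lists chosen by function. Of 53 other replication genes, none was called, 2 had an unadjusted p under 0.05 and were higher, none was lower, against 5.63% and 2.33% of all genes tested. The groups of 2 genes were apart and higher and of 1 lower, against 9.69% and 4.03%, and the median log2 fold change was 0.094. The 2 higher genes were *Rpa3*, a subunit of the single-strand binding protein, at 130, 110 and 175 TPM in the controls and 190, 244 and 182 TPM in the *Snd1* KO clones, and *Pole2*, a subunit of polymerase ε. *Pole2* had 19.4, 16.5 and 15.6 TPM against 22.2, 27.8 and 21.8 TPM. Both had groups apart, with limma adjusted p of 0.585 and 0.581. *Orc5*, of the origin recognition complex, was apart in the other direction, at 21.4, 19.2 and 16.7 TPM against 16.7, 15.8 and 15 TPM (limma adjusted p = 0.64), with Control 3 and *Snd1* KO 1 nearly equal.

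Of 65 other mitosis genes, none was called, 5 were higher and 1 was lower at an unadjusted p under 0.05, against the same 5.63% and 2.33%. The groups of 7 genes were apart and higher and of 1 lower, against 9.69% and 4.03% of all genes tested. The median log2 fold change was 0.085. The 5 were *Hmgb2*, *Depdc1a*, *Nusap1*, *Smc4* and *Lmnb1*, of which the last 3 are named after their values were seen. *Hmgb2*, a chromatin protein, had 319, 253 and 334 TPM in the controls and 373, 472 and 441 TPM in the *Snd1* KO clones. Its groups were apart, and it differed by 0.51 on the log2 scale (SE 0.15, limma adjusted p = 0.568). *Depdc1a* was also apart, with 22.1, 16.9 and 16.3 TPM against 24.9, 24.5 and 23.2 TPM. *Cdca5*, which encodes sororin, a protector of sister chromatid cohesion, was the gene lower in every *Snd1* KO clone, at 34.9, 29.6 and 32.4 TPM against 25.3, 28.2 and 25.5 TPM (limma adjusted p = 0.607).

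*Snd1* KO 2 was again the highest clone for 30 of the 53 other replication genes and had a mean deviation of 0.185 log2 units, and Control 3 was the lowest for 24. In the 65 other mitosis genes *Snd1* KO 2 was also the clone most often highest, for 25 genes with a mean deviation of 0.084, against 13 genes and 0.037 for *Snd1* KO 1. The lead of *Snd1* KO 1 among the 21 G2/M genes was thus not seen in that list.

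**Figure D5:**
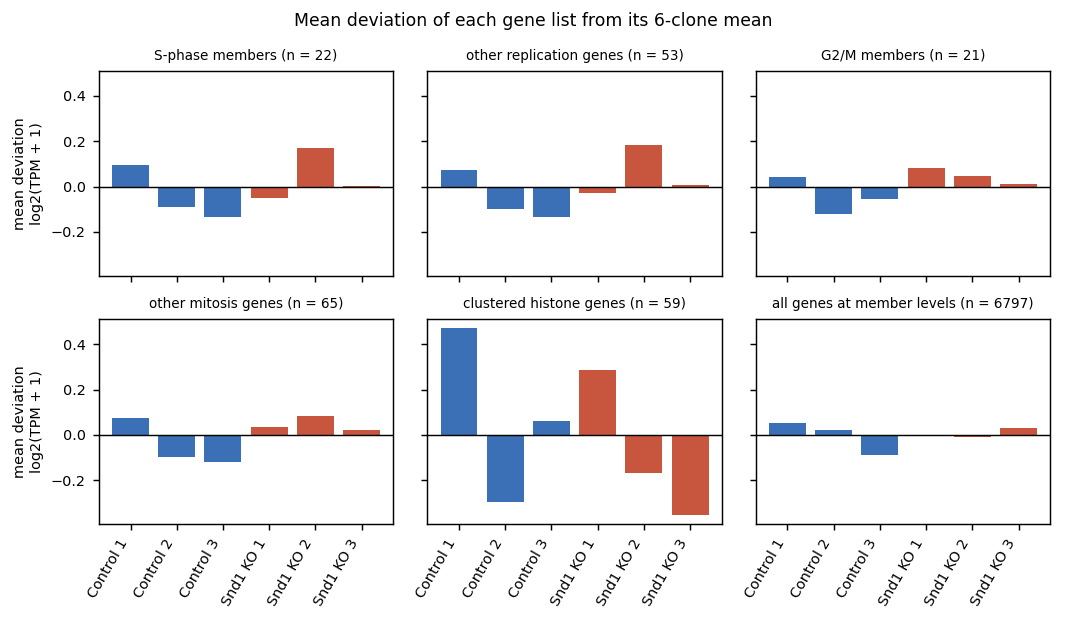
Mean deviation of each gene list from its 6-clone mean in log2(TPM + 1), per clone (blue, control; red, *Snd1* KO), for S-phase and G2/M genes, the other replication and mitosis genes, clustered histone genes and all genes expressed at comparable levels. The bar of *Snd1* KO 2 is tallest for S-phase genes (0.171) and other replication genes (0.185), and histone genes follow another order of clones.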

How the data were processed

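RNA from 6 clones, with integrity numbers of at least 7.0, was made into cDNA and sequenced as paired-end libraries. The authors deposited 1 TPM value per gene and clone. The submitters' processing notes name FastQC, Trimmomatic, HISAT2, HTSeq and DESeq2 and the build mm10. Versions are not given in the sources used here. Gene IDs were matched to GENCODE M21 (53706 of 53801), and 92 ERCC and 7 SIRV rows were left out.

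The members and all gene lists were chosen with earlier results of these data known. limma 3.58.1 (R 4.3.3, variance trend) was fitted to log2(TPM + 1) for the 17823 genes averaging 0.5 TPM or more, 3 *Snd1* KO against 3 control clones, with Benjamini-Hochberg adjustment over all of them. A gene was called at an adjusted p under 0.05 and at least 2-fold. On this scale fold changes of low genes are understated. The fit was tested on simulated data. The text gives values in every clone for the 6 genes per phase with the highest level per length, the 5 per phase with the largest difference, and any with groups apart or an unadjusted p under 0.05. Of other lists it names genes called, or otherwise up to 2 per direction with groups apart. Members named beyond this rule complete the account of the 43.

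Whole reads were recovered from the TPM and exon lengths for 99.97% of values (tolerance 0.01 reads), including all 43 members. For 1779 genes the length was searched rather than taken from the annotation. Whether 1 read is a mate or a pair is not known. Reads served for depth, levels per length and the voom alternative.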

Additional observations from a re-analysis of the deposited data

How the results depend on the processing

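No S-phase or G2/M gene was called under any alternative run: a pseudocount of 0.1 TPM, no expression filter or a mean of at least 5 TPM, quantile or median ratio scaling, rescaling without insulin and mitochondrial genes, clone quality weights, voom on recovered reads, a replicate block, and each clone left out. Apart from clone quality weights (895 genes) and the omission of Control 3 and *Snd1* KO 1 (133 genes), these settings called at most 1 gene in the whole table, so a count of 0 says little about stability. Median log2 fold changes remained above 0 but ranged from 0.044 to 0.18 in S phase and from 0.047 to 0.15 in G2/M. The count of genes with groups apart moved most. For S phase, 1 in the main analysis, it was 2 with median ratio scaling (14.5% of all genes tested), 4 after rescaling (15.4%), and 1 to 9 with each clone left out. For G2/M, 0 in the main analysis, it was 2 with median ratio scaling, 3 with quantile normalization (14.2%), 4 after rescaling, 3 with voom (14.2%), and 0 to 8 with each clone left out. The counts were 9 and 8 without Control 1, where 19.8% of all genes tested were apart in either direction, and 9 and 1 without *Snd1* KO 1, where 33.5% were, against 13.7% in the main analysis. Without Control 3 and *Snd1* KO 1, an alternative chosen after seeing the data, they were 12 and 5, where 61% of all genes were apart. Among the 11 genes followed singly through the alternatives, the sign of *Cenpe* reversed, to -0.031 with clone quality weights and -0.082 without Control 3 and *Snd1* KO 1, and the cause was not tested. Over all 43 genes, 18 changed sign under some alternative, none with a main log2 fold change above 0.19 in size. At an unadjusted p under 0.05 there were 5 S-phase and 2 G2/M genes with clone quality weights (32.6% of all genes), 4 and 1 without Control 3 and *Snd1* KO 1 (26.7%), 3 and 0 without *Snd1* KO 1 (14.3%), 3 and 2 without Control 3 (13.9%), 0 and 1 without Control 1 (4.98%), and none under the others.

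Replicate numbers did not pair the clones: deviations of same-numbered clones correlated at 0.0507, -0.122 and -0.0736 over genes. With the replicate block the medians were 0.10 and 0.096 and 0 genes of either phase were called.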

Other observations

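The regulators around these genes were also measured. Of 19 genes of the E2F, pocket protein and DREAM group, which switch cell cycle promoters on and off, none was called by limma. At an unadjusted p under 0.05, 1 was higher and none lower, against 5.63% and 2.33% of all genes tested. This was *Lin9*, a MuvB subunit, at 18.4, 16.8 and 15.5 TPM in the controls and 23.8, 23.8 and 22.1 TPM in the *Snd1* KO clones. Its groups were the only ones apart in this list, where 9.69% of all genes tested were apart as higher and 4.03% as lower. The log2 fold change of *Lin9* was 0.44 (SE 0.12, limma adjusted p = 0.568). Among 16 genes of the anaphase-promoting complex none was called, 7 were higher and 9 lower in mean, and the median log2 fold change was -0.0066. Only *Anapc13* had groups apart or an unadjusted p under 0.05, against 9.69% and 5.63% of all genes tested with a higher level. *Anapc13* had 52.1, 52.1 and 72.1 TPM in the controls and 72.8, 91.5 and 74.7 TPM in the *Snd1* KO clones (limma adjusted p = 0.605). Control 3 and *Snd1* KO 1 were nearly equal. No gene was called or had groups apart among the 16 checkpoint kinase genes and partners tested of 17 listed, whose median log2 fold change was -0.0076. Over all genes tested 0.00561% were called, and 9.69% were apart as higher and 4.03% as lower.

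Clustered histone genes, which supply histones for newly made DNA, did not follow the order of clones seen in the S-phase genes. Their mean deviation was 0.470 log2 units in Control 1, -0.297 in Control 2, 0.060 in Control 3, and 0.288, -0.169 and -0.352 in *Snd1* KO 1 to 3. Of 59 genes tested of 67 listed, limma called none, 2 were higher and 5 lower at an unadjusted p under 0.05, where 5.63% and 2.33% of all genes tested were, and the median log2 fold change was -0.12. The 2 were *Hist1h2ao* and *Hist2h2be*, and the 5 were *Hist1h4n*, *Hist1h1e*, *Hist1h1d*, *Hist1h3d* and *Hist1h2bm*. With clone quality weights 5 were called, where 5.02% of all genes tested were, *Hist1h1d*, *Hist1h2bk*, *Hist1h4n* and *Hist1h2bn* as lower and *Hist1h2ao* as higher. *Hist1h2bk* had 1 to 8 reads per clone. Histone genes outside the naming rule are named here after their values were seen. The largest difference with groups apart was *Hist1h4n*, at 11.0, 8.55 and 9.40 TPM in the controls and 4.96, 2.81 and 3.49 TPM in the *Snd1* KO clones (limma adjusted p = 0.374), but it rested on 6 to 27 reads per clone. *Hist1h1e* was also lower in every *Snd1* KO clone, at 15.8, 8 and 10.7 TPM against 7.73, 3.75 and 4.86 TPM. *Hist1h2ao* was higher in every *Snd1* KO clone, on 6 to 19 reads, and *Hist2h2ac* likewise, on 0 to 6 reads. *Hist2h2be* also had groups apart, at 20.3, 19.9 and 22.5 TPM against 23.9, 39.3 and 29.9 TPM, on 283 to 512 reads. Histone genes have near-identical copies, so the split of reads between them is uncertain, and most of their mRNAs lack a poly(A) tail. The part of either in these values was not tested.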
